A study of Mus musculus with 6 samples.

Results

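Gpx4 and Gpx1, genes of 2 glutathione peroxidases, were followed through every class of read in the RNA of invariant natural killer T (iNKT) cells sorted from mouse spleen. They were chosen by name and are 2 of the 48709 genes in the deposited table. Glutathione peroxidases use glutathione to reduce peroxides, and in both of these the catalytic residue is selenocysteine, which is inserted at a UGA codon that would otherwise end translation. GPX4 reduces lipid hydroperoxides within membranes and so protects cells from ferroptosis, a death driven by iron and lipid peroxides, whereas GPX1 is the abundant cytosolic enzyme that reduces hydrogen peroxide. iNKT cells are T cells that recognise lipids presented on CD1d through a semi-invariant receptor.

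The labels describe 3 samples from conditional Gpx4 knockout mice (Gpx4 cKO) and 3 from wild-type mice (WT), all of spleen NKT cells in the resting state. The design asks how the iNKT transcriptome differs between these genotypes. The labels give no age, no Cre driver, no deleted exons, and no statement on whether samples came from separate or pooled mice. The table holds 6 libraries, numbered 18 to 23, and 0 of these names occur in a label. Genotypes were not assigned to libraries, a comparison of Gpx4 cKO with WT was not made, and each value below belongs to a numbered library.

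Exon reads per library ranged from 903524 in library 21 to 10122187 in library 19, and a count of 0 allowed up to 3.32 and 0.296 reads per 1000000 exon reads (CPM) in these libraries. Reads on introns made up 46.8% to 52.1% of all gene reads. All 8 listed markers of iNKT and other T cells were read in every library, with a sum of 3454 to 5322 CPM. Of the other listed markers, the 5 of B cells summed to 654 to 4482 CPM, mostly Igkc, and the 5 of erythroid cells to 4.11 to 278 CPM. Sums for platelet, dendritic cell, macrophage and NK cell lists stayed between 1.12 and 15.7 CPM, and 3 of the 4 neutrophil markers had no read in any library. In RNA of whole samples, fewer cells of a type and less RNA per cell cannot be told apart. All intervals are at 95% and cover counting error of reads only, not spread between mice or preparations. PCR copies of a molecule were not shown to have been removed, and the intervals make no allowance for them.

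Both genes carry an annotated selenocysteine codon. It lies in exon 3 of 7 of the coding transcript Gpx4-202, as codon 73, and in exon 1 of 2 of Gpx1-201, as codon 47. Among the 8 mouse glutathione peroxidase genes, 4 (Gpx1, Gpx2, Gpx3 and Gpx4) have such a codon in GENCODE vM21. The coding sequence around it, read from the GENCODE transcripts (GRCm38, plus strand, chr10:80054707-80054769 for Gpx4 and chr9:108339421-108339483 for Gpx1), is shown because this codon sets these enzymes apart from other peroxidases. The capitals mark the selenocysteine codon.
Gpx4: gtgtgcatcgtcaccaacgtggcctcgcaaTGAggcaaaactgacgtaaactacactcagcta
Gpx1: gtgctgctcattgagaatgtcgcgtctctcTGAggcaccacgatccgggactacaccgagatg
Of the 63 aligned bases, 35 (55.6%) are identical. Every read counted for either gene was unique to it, with a deposited ratio of unique to total exon reads of 1 in all 6 libraries, so no reads shared with a copy elsewhere enter the values below.

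The annotation decides what counts as an intron read. Gpx4 (ENSMUSG00000075706) lies on chromosome 10 at 80047166 to 80056439 on the plus strand and has 7 annotated transcripts, 18 distinct exons, 1724 bases of exon and 7550 bases between exons. Of those 7550 bases, 6029 (79.9%) lie upstream of the first base of any coding transcript, in the introns of a single transcript annotated as noncoding, and 1521 lie within the coding transcripts. An intron read of Gpx4 can therefore come from either region, and the table does not say which. Gpx1 (ENSMUSG00000063856) lies on chromosome 9 at 108338903 to 108340343 on the plus strand. The table gives it 3 transcripts, 1072 bases of exon and 369 bases outside exons. Relative to the coding transcripts in GENCODE, those are 218 bases of intron and 151 bases that precede the first coding transcript. GENCODE also has a retained-intron transcript of Gpx1, Gpx1-203, whose single exon covers all 369 bases. The table's 1072 bases match GENCODE without it. The 1724 exon bases of Gpx4 include its retained-intron transcripts, and are 1567 without them. What counts as an intron read thus differs between Gpx4 and Gpx1. No other annotated gene overlaps either gene.

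**Figure D1:**
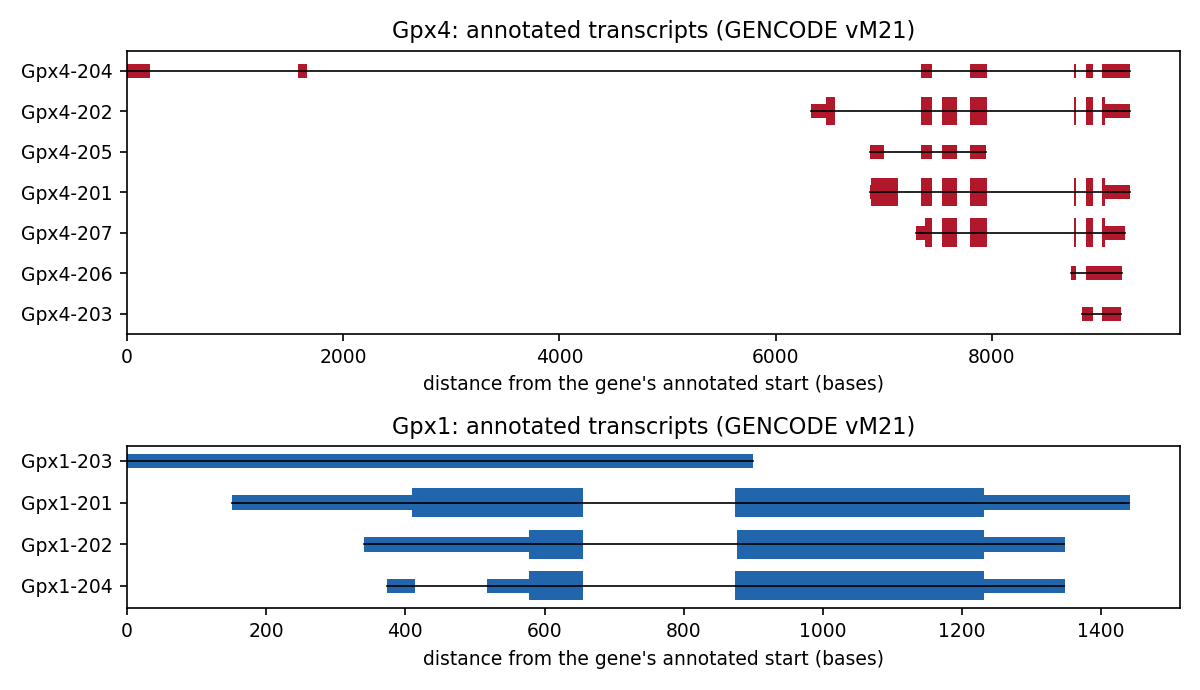
Annotated transcripts of Gpx4 (7, top) and Gpx1 (4, bottom) in GENCODE vM21, drawn by distance in bases from the annotated start of the gene. Thick boxes are coding bases, thin boxes other exon bases and lines introns. The long lines at the left of the top panel are the 6029 bases between exons of a single noncoding transcript that precede every coding transcript.

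Libraries 18 to 23 held 250, 34, 172, 12, 157 and 21 Gpx4 exon reads, in that order. Scaled to all exon reads, library 18 had 31.2 CPM (95% exact Poisson interval 27.4 to 35.3) and library 19 had 3.36 CPM (2.33 to 4.69). Library 20 held 31.7 CPM (27.1 to 36.8) and library 21 held 13.3 CPM (6.86 to 23.2), while library 22 held 29.0 CPM (24.7 to 34.0) and library 23 held 11.0 CPM (6.78 to 16.7). Libraries 20, 18 and 22 were the highest, and neighbours among them did not differ beyond counting error, with ratios of 1.02 (0.832 to 1.24) and 1.07 (0.876 to 1.32). Library 22 exceeded library 21 by 2.19-fold (1.22 to 4.32). Libraries 21 and 23 did not differ beyond counting error (ratio 1.21, 0.544 to 2.58). Library 23 exceeded library 19, the lowest, by 3.26-fold (1.80 to 5.78).

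Gpx1 exon reads numbered 313, 304, 174, 32, 164 and 83 in libraries 18 to 23. Library 18 had 39.0 CPM (34.8 to 43.6), library 19 had 30.03 CPM (26.8 to 33.6) and library 20 had 32.0 CPM (27.4 to 37.2). Library 21 had 35.4 CPM (24.2 to 49.998), library 22 had 30.3 CPM (25.9 to 35.4) and library 23 had 43.3 CPM (34.5 to 53.7). Libraries 23 and 18 were the highest and library 19 the lowest, and no library differed beyond counting error from the next in order. Between the ends of that order the ratio was 1.44 (1.12 to 1.84). Erythroid markers, whose cells carry much GPX1, reached a sum of 278 CPM in library 23, the highest for Gpx1, and stood at 4.11 CPM in library 18, the next highest. Their part in the Gpx1 level was not tested.

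**Figure D2:**
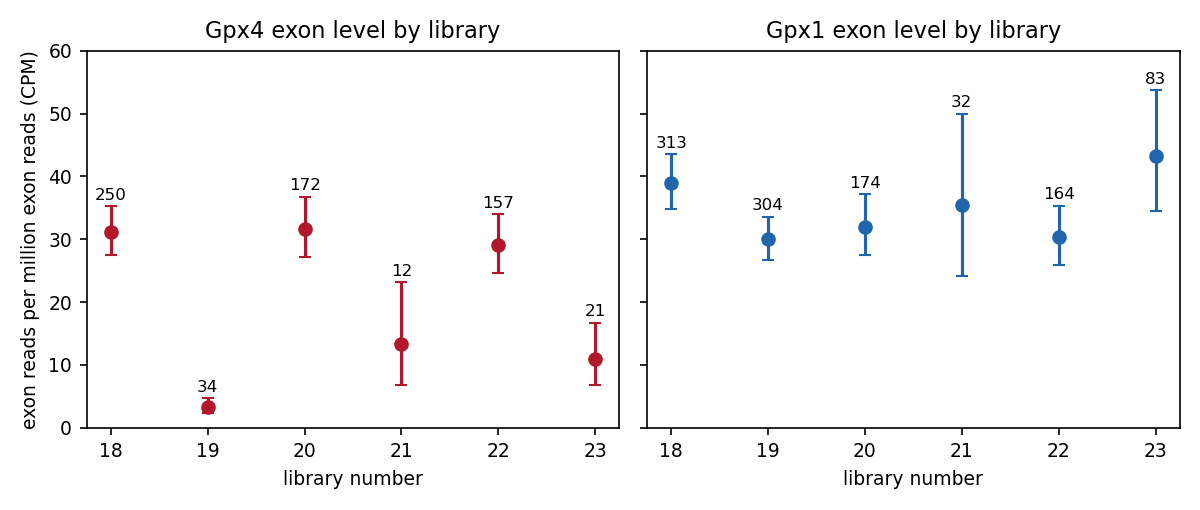
Exon reads per 1000000 exon reads (CPM) of Gpx4 (left) and Gpx1 (right) in libraries 18 to 23. Points are the values, bars the 95% exact Poisson intervals, and the number above each bar is the count of reads. Gpx4 lies between 3.36 and 31.7 CPM and Gpx1 between 30.03 and 43.3 CPM.

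A chi-square test of each gene's counts against the exon reads of the libraries asked whether libraries differed by more than counting error. Of the 9042 genes with at least 200 exon reads, 73.5% passed it at an adjusted p under 0.05 (Benjamini-Hochberg), so passing is common. Gpx4 passed (adjusted p = 9.51e-52), as did Gpx1 (adjusted p = 0.00446). Without library 18, Gpx1 no longer passed (adjusted p = 0.0664). Gpx4 passed with any single library left out, at adjusted p = 8.12e-06 without library 19.

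The size of the range separates the genes more than the test does. The highest Gpx4 level was 9.43 times the lowest (6.50 to 14.1), or 2.89 times without library 19. Gpx1 ranged 1.44-fold, and the median over the tested genes with a read in every library was 1.60-fold. A range past 4-fold was found for 7.04% of tested genes, Gpx4 among them and Gpx1 not. In all, 223 of the 9042 tested genes (2.47%) had a range at least as wide as that of Gpx4, and 6018 (66.6%) one at least as wide as that of Gpx1. Both counts include the 58 tested genes with no read in some library, which the medians given here leave out. Among the 3576 genes with Gpx4's read number to within 2-fold, the median range was 1.81-fold and 90 genes ranged at least as widely. Without library 21, the shallowest, the number of tested genes past 4-fold fell to 272, against 637 with all libraries. Without library 19 it was 574, and Gpx4, at 2.89-fold, was not among them.

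The authors' own scaled values had the same lowest library for Gpx4, and RPKM another order at the top. In TPM, which is per exon length and sums to 1000000 in each library, Gpx4 was at 51.4, 5.91, 52.1, 21.4, 46.9 and 17.5 in libraries 18 to 23. In RPKM, which is per kilobase of exon and per 1000000 reads, library 18 was highest at 8.30 and library 19 lowest at 0.937. Gpx1 stood at 104, 85.0, 84.8, 91.9, 78.8 and 112 TPM in libraries 18 to 23. Its RPKM ran from 12.2 in library 20 to 18.6 in library 23. The RPKM values imply a library total above the exon reads, which made up 40.9% of it in library 20 and 49.1% in library 22. This lowers the RPKM of every gene in library 20 relative to its CPM.

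The 2 genes can be set against each other within a library, where depth cancels. Per 100 Gpx1 exon reads there were 79.9 Gpx4 exon reads in library 18 (67.4 to 94.6, from the exact binomial interval of the share), while library 19 had 11.2 (7.60 to 16.0) and library 20 had 98.9 (79.6 to 123). Library 21 had 37.5 (17.6 to 74.8), library 22 had 95.7 (76.4 to 120) and library 23 had 25.3 (14.9 to 41.2). Library 20 thus exceeded library 19 by 8.84-fold (6.09 to 13.2), and the widest ratio without library 19 was 3.91-fold. Per exon length, Gpx4 was below Gpx1 in every library, at 0.615 of its TPM in library 20 and 0.0695 in library 19. This order depends on the exon lengths used, 1724 bases for Gpx4 and 1072 bases for Gpx1. The 1724 bases are the exons of all 7 Gpx4 transcripts together, and lengths of single transcripts were not used.

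Most Gpx4 exon reads were spliced. Reads across an exon-exon junction numbered 231, 26, 163, 12, 136 and 18 in libraries 18 to 23. Their share of Gpx4 exon reads was 92.4% in library 18 (exact binomial interval 88.4% to 95.4%), 76.5% in library 19 (58.8% to 89.3%) and 94.8% in library 20 (90.3% to 97.6%). Library 21 had only junction reads, 12 of 12 (73.5% to 100%), library 22 had 86.6% (80.3% to 91.5%) and library 23 85.7% (63.7% to 97.0%). Over all libraries the share was 90.7% for Gpx4, 39.0% for Gpx1 and 48.4% for all genes together. The coding transcript Gpx4-202 has 7 exons and Gpx1-201 has 2.

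Gpx1 junction reads numbered 131, 125, 66, 3, 66 and 26 in libraries 18 to 23. Their share of Gpx1 exon reads was between 31.3% (21.6% to 42.4%, library 23) and 41.9% (36.3% to 47.5%, library 18) in all libraries but library 21. There, 3 of 32 exon reads crossed a junction, 9.38% (1.98% to 25.0%), although 48.3% of all exon reads of library 21 did so. Between libraries, the junction share differed beyond counting error for 42.6% of 8258 genes tested across the table. It did so for Gpx1 (adjusted p = 0.0233), but not without library 21 (adjusted p = 0.554). For Gpx4 the adjusted p was 0.0136, and it was 0.109 without library 19 and 0.0620 without library 20. The smallest expected count was 1.11 for Gpx4, so its p is approximate.

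**Figure D3:**
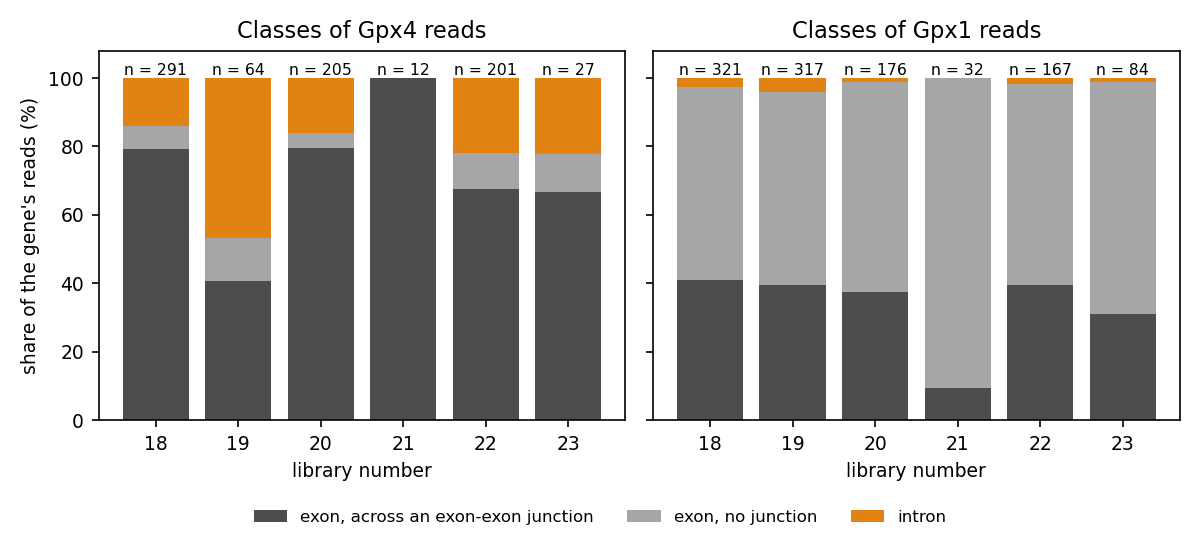
Share of Gpx4 reads (left) and Gpx1 reads (right) that crossed an exon-exon junction, lay on an exon without a junction, or lay on an intron, in libraries 18 to 23. The number above each bar is the gene's total reads. Intron reads reach 46.9% of Gpx4 reads in library 19 and at most 4.10% of Gpx1 reads.

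Intron reads of Gpx4 numbered 41, 30, 33, 0, 44 and 6 in libraries 18 to 23. As a share of all Gpx4 reads this was 14.1% in library 18 (10.3% to 18.6%), 46.9% in library 19 (34.3% to 59.8%) and 16.1% in library 20 (11.3% to 21.9%). In library 21, 0 of 12 reads lay on introns (0% to 26.5%). Library 22 held 21.9% (16.4% to 28.3%) and library 23 22.2% (8.62% to 42.3%). Library 19 was the highest, and its interval lay above those of libraries 18, 20 and 22. Intron shares differed between libraries beyond counting error for 70.6% of the 8510 genes tested and for Gpx4 (adjusted p = 3.69e-07), though not for Gpx4 without library 19 (adjusted p = 0.114). Its smallest expected count was 2.31.

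The high share in library 19 came with few exon reads rather than many intron reads. Per 1000000 intron reads of the library, library 18 had 5.13 Gpx4 intron reads (3.68 to 6.96), library 19 had 3.15 (2.13 to 4.50) and library 20 had 5.59 (3.85 to 7.85). Library 22 had 9.25 (6.72 to 12.4) and library 23 had 3.42 (1.26 to 7.45). In library 21 none was found (0 to 4.40). Against library 19, exon levels were 9.28-fold higher in library 18 (6.47 to 13.7), 9.43-fold in library 20 (6.50 to 14.1) and 8.65-fold in library 22 (5.94 to 12.9). Intron levels against library 19 were 1.63-fold in library 18 (0.991 to 2.70), 1.77-fold in library 20 (1.05 to 3.01) and 2.94-fold in library 22 (1.80 to 4.84). Library 21 had an exon ratio of 3.95 (1.86 to 7.83) and an intron ratio of 0 (0 to 1.48). In libraries 18, 20, 21 and 22 the exon interval lay wholly above the intron interval. For library 23 the exon ratio was 3.26 (1.80 to 5.78) and the intron ratio 1.09 (0.369 to 2.65), and these intervals overlapped. Intron levels of Gpx4 also differed beyond counting error (adjusted p = 3.88e-05), as did those of 84.1% of 14368 genes with at least 50 intron reads.

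**Figure D4:**
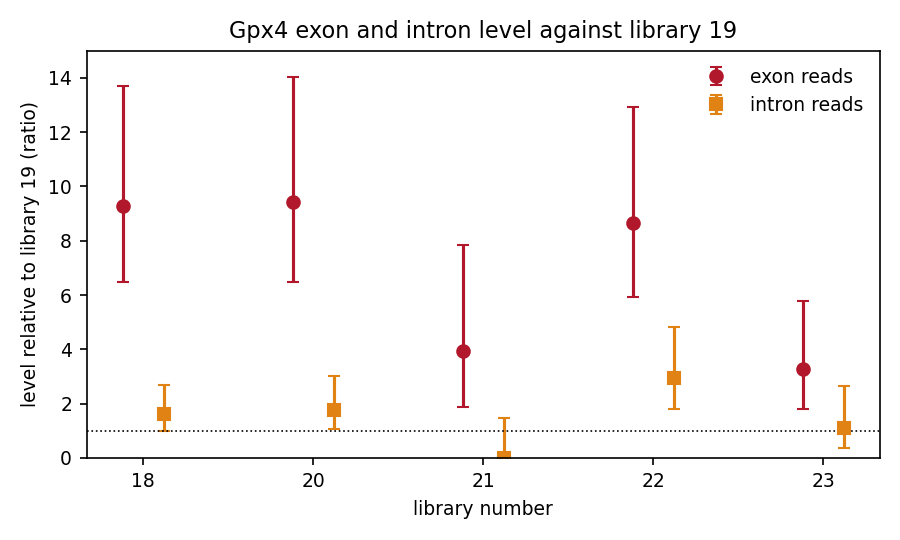
Gpx4 exon level (circles) and intron level (squares) of 5 libraries as a ratio to library 19, each scaled to the library's exon or intron reads, with 95% exact conditional intervals. Exon ratios are 8.65 to 9.43 in libraries 18, 20 and 22, where intron ratios are 1.63 to 2.94, and the dotted line marks a ratio of 1.

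Gpx1 had few intron reads, 8, 13, 2, 0, 3 and 1 in libraries 18 to 23. They were at most 4.10% of its reads, in library 19 (2.20% to 6.91%), and 2.46% over all libraries. With 27 intron reads in all, Gpx1 was below the 50 required for the test. At a minimum of 20 its intron share did not differ beyond counting error (adjusted p = 0.292, chi-square test). The smallest expected count was 0.788, so this p is approximate and a difference could be missed. Per kilobase over all libraries, Gpx4 had 375 exon and 20.4 intron reads, and Gpx1 had 998 exon and 73.2 intron reads. Exon lengths were 1724 bases for Gpx4 and 1072 for Gpx1, and intron lengths 7550 and 369 bases. Of the 7550 bases, 6029 lie upstream of the coding transcripts of Gpx4, and 151 of the 369 precede that of Gpx1. The densities of the 2 genes depend on these lengths and are not compared.

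The transcript-level column counts, for each gene, the annotated transcripts that at least some reads identified uniquely. For Gpx4 it was 2 of 7 in libraries 19 and 23 and 1 in the other 4 libraries. For Gpx1 it was 2 of 3 in library 19 and 1 elsewhere. The table does not name the transcripts, and the column holds no read counts, so cytosolic, mitochondrial and nuclear forms of GPX4, which arise from alternative starts, were not separated.

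The genes beside Gpx4 and Gpx1 did not share the range of Gpx4. Polr2e, a subunit gene of RNA polymerase II that lies 7371 bases upstream, ranged 1.59-fold (15.9 to 25.3 CPM). Sbno2, which encodes a transcriptional coregulator and lies on the minus strand 977 bases beyond the 3' end of Gpx4, ranged 1.46-fold (27.2 to 39.8 CPM). Sbno2 did not differ beyond counting error between libraries (adjusted p = 0.0967). Of the 4 neighbours tested, 2 passed the test of exon level, Polr2e (adjusted p = 0.00656) and Usp4 (adjusted p = 1.73e-06), against 73.5% of all tested genes. Beside Gpx1, Rhoa, a small GTPase gene ending 969 bases upstream, ranged 1.23-fold (197 to 242 CPM) and the ubiquitin protease gene Usp4 1.39-fold (119 to 165 CPM). The other 2 genes within 10000 bases, the pseudogene Gm37568 and the antisense gene Gm37401, held 2 exon reads in all.

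**Figure D5:**
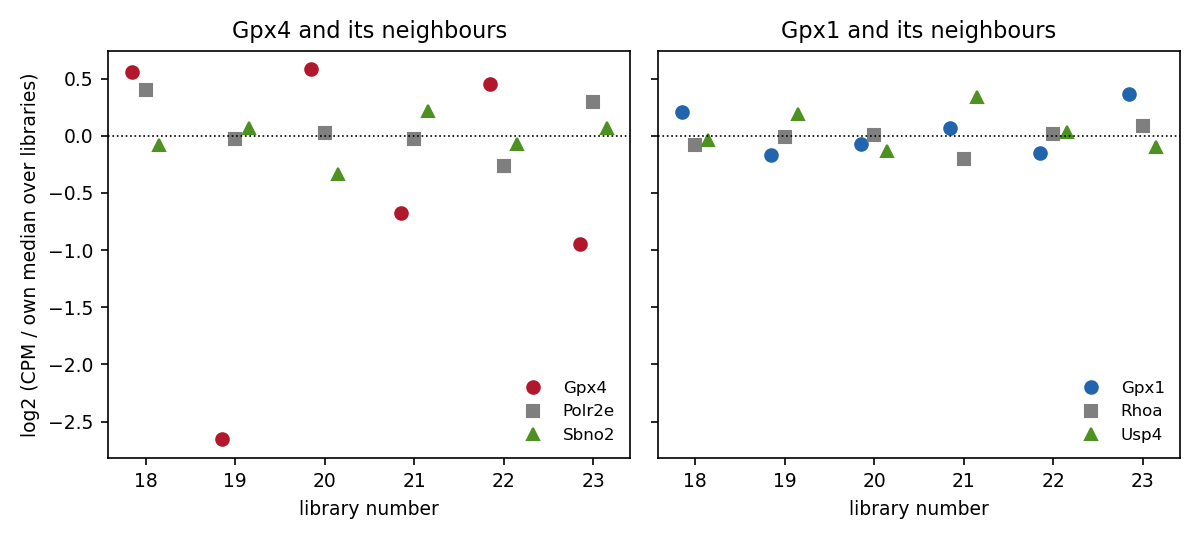
Exon level of Gpx4 with its neighbours Polr2e and Sbno2 (left) and of Gpx1 with its neighbours Rhoa and Usp4 (right) in libraries 18 to 23, as log2 of CPM over the gene's own median. Gpx4 in library 19 lies furthest from its median, and the 4 neighbours range 1.23-fold to 1.59-fold.

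Other glutathione peroxidases were at the edge of detection. Of the 7 other rows whose name starts with Gpx, none reached 200 exon reads, and Gpx6 and the pseudogene Gpx2-ps1 had no exon read at all. Gpx3, the secreted plasma enzyme, had 18 exon reads, of which 9 were in library 20, 8 in library 22 and 1 in library 18. Gpx7 and Gpx8, enzymes of the endoplasmic reticulum, had 3 each, and Gpx2, the gastrointestinal form, and Gpx5, the epididymal form, 1 each. Gpx4 and Gpx1 were thus the glutathione peroxidase genes with enough reads to compare.

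Genes of the supply and turnover of glutathione, the substrate of both enzymes, were listed as Gclc, Gclm, Gss, Gsr, Ggct and Slc7a11. Of these 6, 4 had enough reads and all 4 differed between libraries beyond counting error, as did 73.5% of all tested genes. Their median range was 1.55-fold, against 1.60-fold over the tested genes with a read in every library. Gclm, the modifier subunit of the rate-limiting ligase, had its lowest level, 9.96 CPM, in library 21 and its highest, 39.1 CPM, in library 23 (adjusted p = 3.36e-13). The lowest level rests on 9 exon reads, and the next lowest was 13.4 CPM, in library 19. Gclc, the catalytic subunit of the same ligase, ranged from 25.0 to 37.6 CPM, and Gsr, which regenerates glutathione, from 31.2 to 44.0 CPM. Ggct, an enzyme of glutathione turnover, ranged from 18.6 to 29.7 CPM. Gss, glutathione synthetase, had 141 exon reads and Slc7a11, the cystine transporter, 26, too few for the test. Their intron reads were more, 236 for Gss and 430 for Slc7a11. Intron reads made up 86.4% to 100% of Slc7a11 reads across the libraries.

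Few genes had a profile like that of Gpx4. Likeness was measured as the largest gap, over the 6 libraries, between 2 genes' log2 (CPM + 1) deviations from their own medians. Of 9041 other tested genes, 3 came within 1 log2 unit of Gpx4 and 0 within 0.5, whereas 7631 came within 1 and 3694 within 0.5 of Gpx1. The named genes nearest to Gpx4 were Tnfaip3, an NF-kappaB inhibitor (gap 0.87), Plk2, a polo-like kinase (0.996), Rgs2, a G protein regulator (1.02), and Sap30, a corepressor subunit (1.03). Nearest to Gpx1 were Paics, a purine synthesis enzyme (0.11), Taf5l, a subunit of transcription coactivator complexes (0.11), Kpna1, a nuclear import adaptor (0.12), Ndufc1, a complex I subunit (0.12), and Parp3, a poly(ADP-ribose) polymerase family member (0.12). Gaps are between profiles of the same 6 libraries, and a gene with a narrow range lies near many others.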

How the data were processed

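RNA of splenic iNKT cells was prepared with NucleoSpin RNA XS and sequenced from QIAseq UPXome libraries, per the labels' protocols. The submitters' processing notes name GRCm38 and mm10 as builds. The sources used here give no aligner, counter, strand setting or treatment of molecular identifiers. Per the file headers, the deposited table holds raw read counts on exons, junctions, introns and whole genes, and the fraction of gene reads on introns. The authors also deposited RPKM and TPM values. One count column, identical to the exon reads in every row, was the 1 value column not used.

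Libraries are rows of this table, and none could be matched to a sample, so the comparison by edgeR's quasi-likelihood test was not run. CPM used all exon reads of a library. TMM factors came from edgeR 4.0.16 and size factors from DESeq2 1.42.0, under R 4.3.3. Chi-square tests (5 degrees of freedom) were run over all genes with at least 200 exon reads for exon level, 50 intron reads for intron level, both for intron share, and 200 exon reads with 50 on either side for junction share, and adjusted by Benjamini-Hochberg at 0.05. They compare libraries, not genotypes. Those of exon level and intron share were tried on simulated counts, with planted changes and counting error as the only spread. Those of junction share and intron level were not. Tests of junction share and intron level were added after the data were examined. Intervals are exact (scipy 1.17.1), also where the count was 0. The CPM limits given with the library depths for a count of 0 took it as fewer than 3. Named genes are the members, rows named Gpx, genes within 10000 bases, 6 glutathione genes and the 5 most similar profiles per member, predicted genes and pseudogenes left out. For Gpx4, 1 of these profiles is not reported here. Members and lists were chosen with earlier results of these data known.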

Additional observations from a re-analysis of the deposited data

How the results depend on the processing

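Gpx4 and Gpx1 passed the test of exon level under TMM, DESeq2 size factors, exon reads without mitochondrial genes and Lars2, unique reads and no minimum on reads. Gpx4 ranged 8.86-fold to 9.77-fold and Gpx1 1.44-fold to 1.53-fold over these scalings and the deposited RPKM, which was not tested. TMM factors were 0.917 in library 21 and 0.990 to 1.05 elsewhere, and put library 21 at 14.5 CPM of Gpx4 and 38.6 CPM of Gpx1. With no minimum on reads, 11986 of 22065 genes passed, against 6646 of 9042.

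Leaving out single libraries gave adjusted p from 3.69e-52 to 8.12e-06 for the Gpx4 exon level and from 0.00221 to 0.0664 for Gpx1. The count of genes passing ran from 5325 to 6275. The Gpx4 range ran from 2.89-fold to 9.43-fold, the Gpx1 range from 1.30-fold to 1.44-fold, and genes past 4-fold numbered 272 to 596. The span of the ratio of Gpx4 to Gpx1 was 3.91-fold to 8.84-fold. Adjusted p for the Gpx4 intron share ran from 1.20e-07 to 0.114, for its intron level from 1.33e-05 to 0.0406, and for its junction share from 0.00944 to 0.109. That share was not tested without library 18 or 22, where fewer than 50 reads without a junction remained. For the Gpx1 junction share it ran from 0.0150 to 0.554. For the Gpx1 intron share, at a minimum of 20 intron reads, it ran from 0.254 to 0.384, with no test without library 18 or 19, where fewer remained. The causes were not tested. Library 21 had the fewest exon reads of both genes, 12 of Gpx4 and 32 of Gpx1. No paired analysis was possible because the libraries carry no sample name or replicate number.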

Other observations

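The Gpx4 exon levels of the unassigned libraries did not form a single close range. Libraries 20, 18 and 22 lay at 31.7, 31.2 and 29.0 CPM, libraries 21 and 23 at 13.3 and 11.0 CPM, and library 19 at 3.36 CPM. Intron levels of Gpx4, scaled to intron reads, were 5.13, 3.15, 5.59, 0, 9.25 and 3.42 per 1000000 in libraries 18 to 23. Libraries 22, 20 and 18 were again the highest, and libraries 23, 19 and 21 the lowest. The order within each of these sets was not that of the exon levels. Of neighbours in the intron order, only libraries 22 and 20 differed beyond counting error. Library 18 did not exceed library 23 beyond it, so the intron levels did not resolve a gap between the sets. Gpx1 exon levels ran from 30.03 to 43.3 CPM without gaps like those of the Gpx4 exon levels.

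Rhoa, which lies beside Gpx1 and is overlapped on the other strand by Gm37401, drew 57.4% of its reads in library 21 from introns, against 21.9% to 26.9% in the other libraries (adjusted p = 1.62e-51, chi-square test over all genes), a feature chosen after its values were seen. Rhoa had 240 intron reads in library 21, or 286 per 1000000 intron reads, against 63.7 to 96.5 in the other libraries, and Gm37401 had 0 exon and 0 intron reads in library 21.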
